A study of Mus musculus with 12 samples.

Results

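The tumour necrosis factor (TNF) superfamily is a set of ligands, mostly membrane-bound trimers, and of the receptors they cluster. The 29 genes described here, 13 ligands and 16 receptors, were the endogenous probes of the panel whose name begins with Tnfsf or Tnfrsf, together with Tnf, Ltb, Cd27, Cd40, Cd40lg, Cd70, Fas, Fasl and Ngfr, out of 750 endogenous probes in all. RefSeq (assembly GRCm38.p6) gave the accession of each of the 29 probes the same symbol. They were counted in 12 samples of mammary gland tumours of the MMTV-PyMT genotype. In this transgenic model the mouse mammary tumour virus promoter drives polyoma middle T in mammary epithelium. The assay was the nCounter Mouse PanCancer IO360 panel, which counts fluorescent barcodes bound to chosen transcripts after amplification of the targets. The 5 groups were PLX+PTX+aPD-L1 (2 samples), R (3 samples of PLX+PTX+aPD-1), NR (3 further samples of PLX+PTX+aPD-1), PLX+PTX (2 samples) and PTX (2 samples). Every group carries PTX in its label and none was untreated, and all groups but PTX also carry PLX. The labels expand neither, and the series title speaks of chemotherapy and of inhibition of CSF1R, the receptor on which macrophages depend. Antibodies against PD-L1 or against its receptor PD-1 were added in the first 3 groups. R and NR are title suffixes left without explanation, and strain background, age and the animal behind each sample were not given in the sources used here.

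Receptors of the family fall into classes by what they carry inside the cell. Death receptors such as Fas hold a death domain that recruits caspases, whereas costimulatory receptors such as CD27 and GITR bind TRAF adaptors and raise NF-kappaB activity in lymphocytes. Ligands made by myeloid cells, among them BAFF and APRIL, keep B cells and plasma cells alive, and the pair RANKL and RANK drives both bone resorption and the growth of mammary epithelium. In tumours the family is best known for the inflammatory effects of TNF itself and for the receptors of T cells that agonist antibodies target.

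The members that passed the test in these tumours were Tnfsf13b, which encodes the B cell survival factor BAFF, Tnfrsf1b, which encodes the second TNF receptor, and Tnfrsf14, which encodes the receptor HVEM. Their promoter windows, from 250 bases before to 50 bases after the transcription start as RefSeq places it (build GRCm38.p6), are shown 5′ to 3′ on the strand of the gene because these genes were higher together in the same group. Of the 29 members, 21 were found in the RefSeq promoter table. Each window was searched on both strands for GAAA followed by any 2 bases and GAAA (the core of the element bound by interferon regulatory factors), for TATAAA and for the NF-kappaB consensus. These 3 motifs were chosen after the 3 genes were known, and no others were searched. Capitals mark the matches, which were all to the interferon element (on the opposite strand in Tnfrsf1b and Tnfrsf14) and overlapped no other match.
Tnfsf13b, chr8:10006383-10006682, strand +: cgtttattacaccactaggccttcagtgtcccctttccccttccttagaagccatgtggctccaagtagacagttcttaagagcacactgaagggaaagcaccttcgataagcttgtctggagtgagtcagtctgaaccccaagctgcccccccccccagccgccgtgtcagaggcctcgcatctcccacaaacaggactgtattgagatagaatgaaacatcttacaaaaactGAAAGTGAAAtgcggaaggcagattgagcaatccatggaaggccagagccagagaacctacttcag
Tnfrsf1b, chr4:145246821-145247120, strand -: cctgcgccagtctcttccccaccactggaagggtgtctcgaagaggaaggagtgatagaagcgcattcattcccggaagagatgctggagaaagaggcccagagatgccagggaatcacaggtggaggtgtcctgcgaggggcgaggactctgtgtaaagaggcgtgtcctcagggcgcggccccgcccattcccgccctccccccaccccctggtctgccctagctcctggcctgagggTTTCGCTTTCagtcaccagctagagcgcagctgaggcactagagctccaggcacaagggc
Tnfrsf14, chr4:154928028-154928327, strand -: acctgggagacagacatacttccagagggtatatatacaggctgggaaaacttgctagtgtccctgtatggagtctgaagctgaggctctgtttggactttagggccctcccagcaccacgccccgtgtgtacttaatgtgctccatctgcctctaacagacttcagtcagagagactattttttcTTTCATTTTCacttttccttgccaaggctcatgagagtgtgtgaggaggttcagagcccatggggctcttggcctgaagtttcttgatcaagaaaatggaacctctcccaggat
The interferon element was present in 3.44% of the 32851 windows of that length in the table and in 4 of the 24 windows of members, which were the 3 above and that of Tnfrsf17. For Tnfsf13b RefSeq lists a second, overlapping window without a match. The NF-kappaB consensus was present in 8.46% of all windows and 4 of the 24 member windows, and TATAAA in 13.6% and in 3. A match describes letters and is no evidence of binding.

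The detection limit was passed by 4 of the 29 members in all 12 libraries, by 11 in at least 6 and by 9 in none. Each library's limit, 2 SD above the mean of its 8 negative-control probes, lay between 19.1 and 35.6 raw counts. The share of members above it in at least 6 libraries was 37.9%, against 61.6% of all 750 endogenous probes. Values below are normalised counts, which are raw counts divided by a scale factor from the geometric mean of the 20 housekeeping probes. Total endogenous counts were 98741 to 141021 in both PLX+PTX+aPD-L1 libraries and R replicate 2, and 298726 to 531086 in the other 9. In these 3 libraries scaling also lifted the background, and their scaled detection limit was 43.1 to 65.5 normalised counts, against 13.3 to 34.2 in the other 9. Scaled negative controls averaged 27.2 ± 7.50 in PLX+PTX+aPD-L1, 20.9 ± 2.63 in R, 11.9 ± 2.28 in NR, 14.8 ± 2.43 in PLX+PTX, and 12.4 ± 2.39 in the PTX libraries (SD, n = 2, 3, 3, 2 and 2). Each probe has its own efficiency, so counts of different probes do not rank their transcripts. The 4 epithelial marker genes on the panel (Epcam, Cdh1, Erbb2 and Esr1) were above the limit in at least 6 libraries, as were 7 of 8 macrophage genes, 1 of 11 T cell genes (Cd3g) and 0 of 5 B cell genes.

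**Figure D1:**
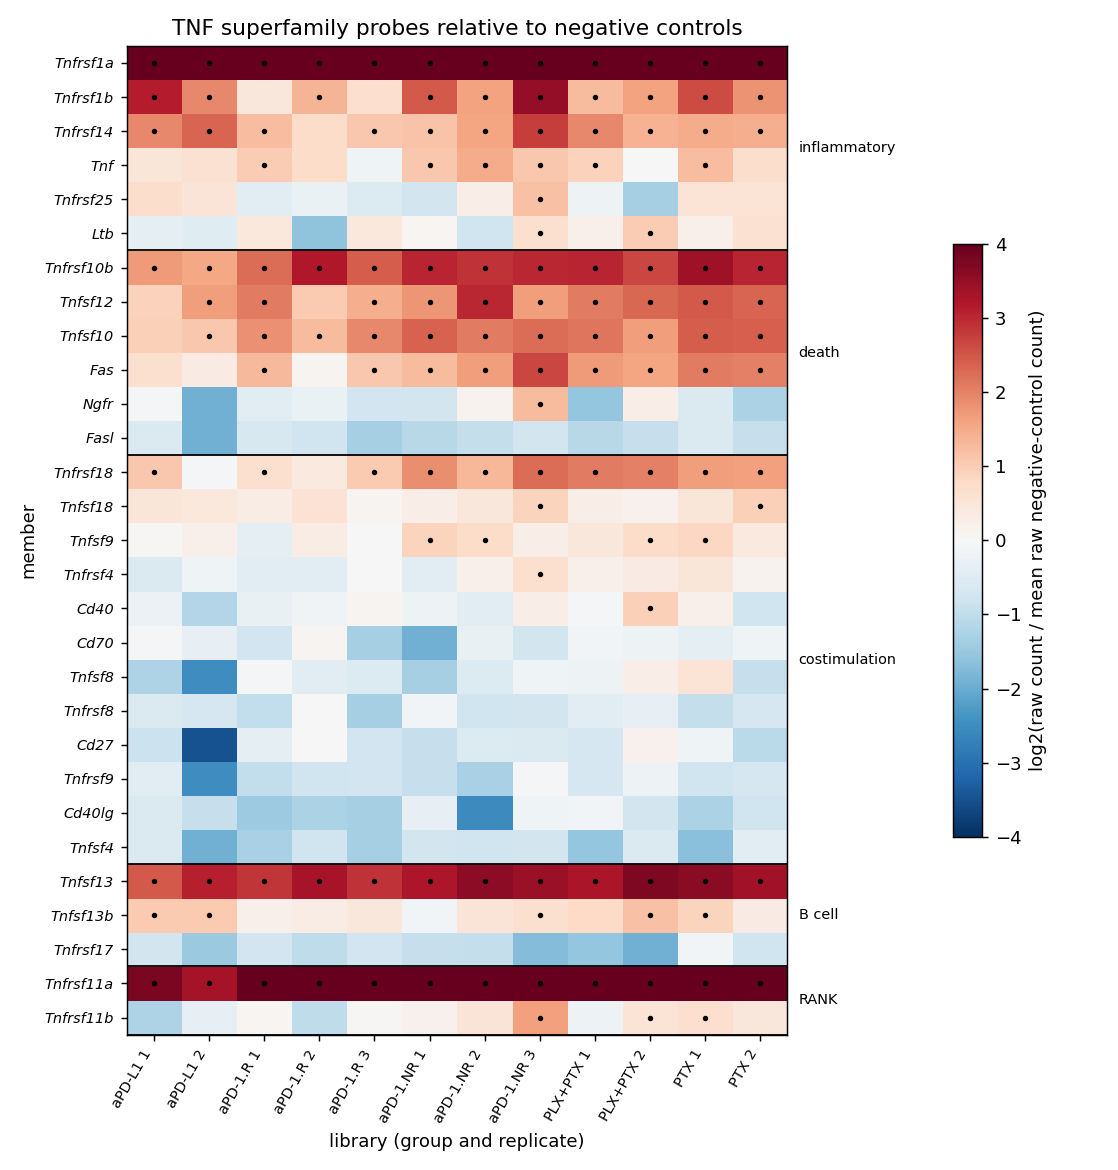
Raw count of each of the 29 members (rows, ordered by role) over the mean raw negative control of the same library (columns, 12 libraries in 5 groups), as a log2 ratio with colours capped at 4; black dots mark counts above the detection limit. Tnfrsf1a, Tnfrsf11a, Tnfsf13 and Tnfrsf10b carry a dot in all 12 libraries, while 9 members, 7 of them in the costimulation block, carry none.

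Among the inflammatory ligands and receptors, Tnfrsf1b and Tnfrsf14 reached their highest values in PLX+PTX+aPD-L1, while Tnfrsf1a, the receptor with a death domain, had its lowest values there. Tnfrsf1b encodes TNFR2, which lacks a death domain and is found mainly on leukocytes and endothelium. It had 194 and 124 normalised counts under PLX+PTX+aPD-L1, 26.4, 61.1 and 30.8 in R, 69.3, 41.7 and 106 in NR, 39.9 and 40.0 in PLX+PTX, and 65.6 and 48.6 in PTX. Both PLX+PTX+aPD-L1 libraries were above every other library, and the next highest was NR replicate 3. In bulk tumour RNA, such as this, a difference in the number of cells of a type and in RNA per cell cannot be told apart. Tnfrsf14 encodes HVEM, which binds the ligand LIGHT and the inhibitory receptor BTLA. It had 83.6 and 162 normalised counts under PLX+PTX+aPD-L1, 45.7, 39.4 and 41.3 in R, 27.9, 40.9 and 63.4 in NR, 62.7 and 34.0 in PLX+PTX, and 30.0 and 38.3 in PTX. Again both PLX+PTX+aPD-L1 libraries were above the other 10, and the other groups overlapped except that all 3 R libraries were above both PTX libraries. Tnfrsf1a encodes TNFR1, the widely expressed receptor for soluble TNF. It had 418 and 555 normalised counts under PLX+PTX+aPD-L1, 672, 1109 and 729 in R, 612, 669 and 628 in NR, 761 and 696 in PLX+PTX, and 801 and 717 in PTX. The PLX+PTX+aPD-L1 libraries were the lowest 2 of the 12, and R replicate 2 was the highest.

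The ligand gene Tnf itself was close to background. It had 30.5 and 49.1 normalised counts under PLX+PTX+aPD-L1, 38.7, 39.4 and 17.3 in R, 27.0, 38.5 and 19.5 in NR, 31.3 and 13.1 in PLX+PTX, and 25 and 22.8 in PTX. The groups overlapped except that both PLX+PTX+aPD-L1 libraries were above both PTX libraries, and 6 of 12 libraries were above the limit (all 3 of NR, 1 each of R, PLX+PTX and PTX). Ltb, which encodes lymphotoxin beta, was above the limit in 2 libraries (4 to 30 raw counts) and Tnfrsf25, the T cell death receptor DR3, in 1 (6 to 30 raw counts).

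**Figure D2:**
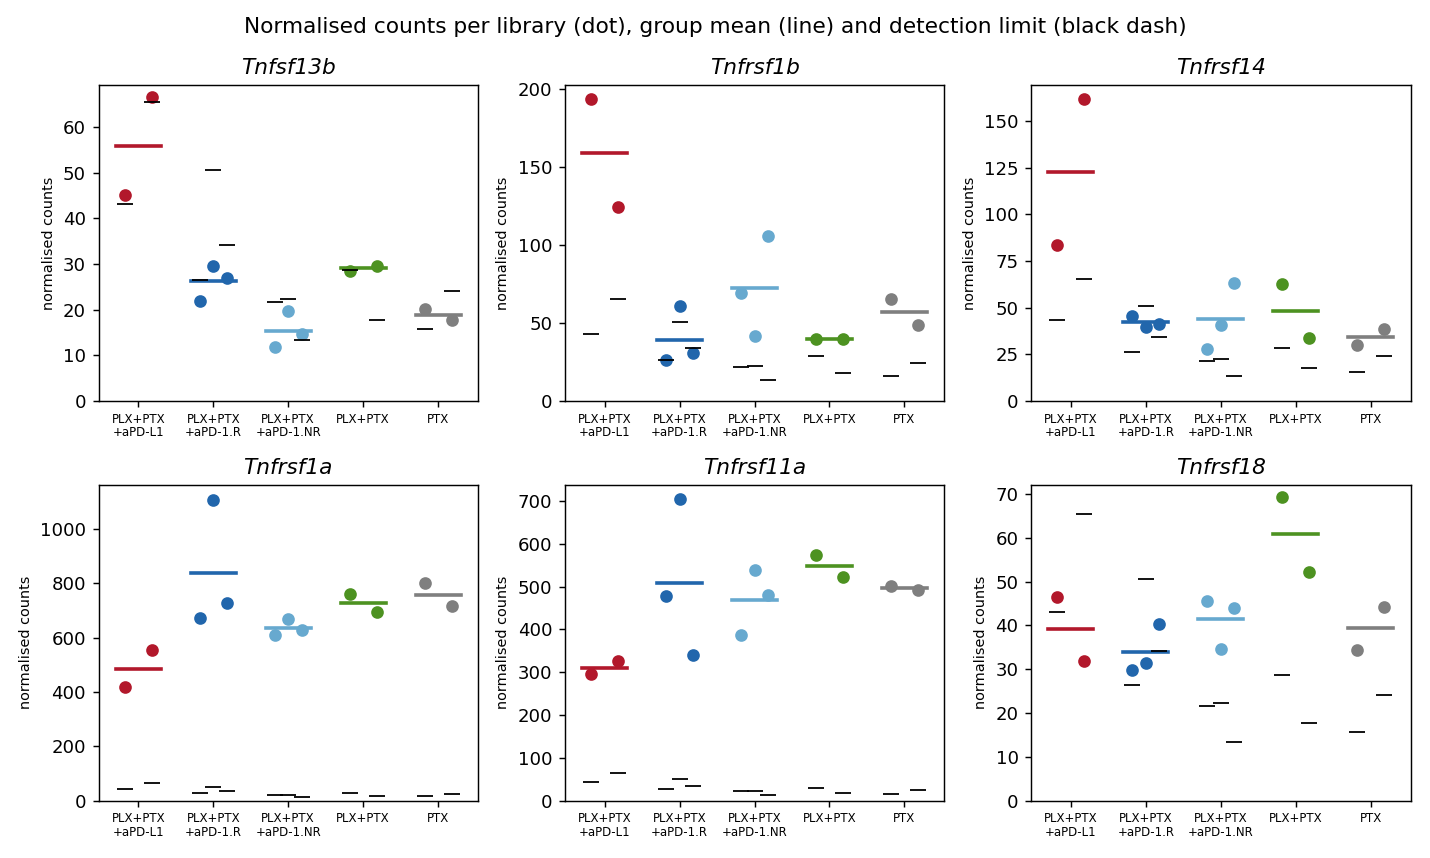
Normalised counts (y axis, linear, from 0) of Tnfsf13b, Tnfrsf1b, Tnfrsf14, Tnfrsf1a, Tnfrsf11a and Tnfrsf18 in the 5 groups (x axis); dots are libraries, coloured lines are group means and black dashes are each library's scaled detection limit. Tnfsf13b, Tnfrsf1b and Tnfrsf14 are highest in the 2 PLX+PTX+aPD-L1 libraries, and Tnfsf13b lies just above the limit there.

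Of the 6 genes of the death ligand and receptor group, 4 were above the limit in at least 9 libraries, and none of these passed the test in any comparison. Tnfrsf10b encodes the mouse receptor for the death ligand TRAIL. It had 71.7 and 95.4 normalised counts under PLX+PTX+aPD-L1, 89.6, 219 and 105 in R, 105, 101 and 75.2 in NR, 136 and 83.6 in PLX+PTX, and 112 and 116 in PTX. R replicate 2, a library of low signal, was the highest. Both PLX+PTX+aPD-L1 libraries and all 3 NR libraries were below both PTX libraries, and the other groups overlapped. Tnfsf10, the gene of TRAIL, had 42.5 and 69.3 normalised counts under PLX+PTX+aPD-L1, 67.7, 57.1 and 74.0 in R, 65.1, 58.2 and 43.9 in NR, 73.1 and 41.8 in PLX+PTX, and 57.3 and 74.4 in PTX. With a highest over lowest ratio of 1.78 it varied the least of the 29. Fas, the receptor of Fas ligand, had 34.5 and 40.5 normalised counts under PLX+PTX+aPD-L1, 47.5, 25.6 and 41.3 in R, 30.4, 43.3 and 59.2 in NR, 54.1 and 39.2 in PLX+PTX, and 45.6 and 56.7 in PTX. Neither PLX+PTX+aPD-L1 library was above the limit for Fas, and all groups overlapped except that both lay under both PTX libraries. Tnfsf12 encodes TWEAK, a ligand that acts on epithelial and stromal cells. It had 41.1 and 104 normalised counts under PLX+PTX+aPD-L1, 81.7, 49.3 and 52.9 in R, 43.1, 109 and 29.9 in NR, 69.3 and 63.6 in PLX+PTX, and 58.9 and 71.4 in PTX. Replicates of PLX+PTX+aPD-L1 and of NR differed from each other more than the groups did. Fasl, the ligand of cytotoxic lymphocytes, was above the limit in no library (3 to 14 raw counts), and Ngfr in 1 (3 to 32).

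T cell costimulation was the largest class on the panel, with 12 members, and the least visible: 7 were above the limit in no library and 1, Tnfrsf18, in more than 4. Tnfrsf18 encodes GITR, a receptor of regulatory and activated T cells. It had 46.5 and 31.8 normalised counts under PLX+PTX+aPD-L1, 29.9, 31.5 and 40.4 in R, 45.6, 34.6 and 43.9 in NR, 69.3 and 52.2 in PLX+PTX, and 34.5 and 44.2 in PTX. Both PLX+PTX libraries were above the other 10. Cd27 (1 to 17 raw counts), Cd40lg (3 to 16), Cd70 (4 to 17), Tnfsf4 (3 to 14), Tnfsf8 (2 to 28), Tnfrsf8 (7 to 14) and Tnfrsf9 (2 to 13) were the members above it in no library. They encode, in that order, the receptor CD27, CD40 ligand, the ligands of CD27, OX40 and CD30, CD30 itself and the receptor CD137. Tnfsf9, the ligand of CD137, was above it in 4 libraries (13 to 34 raw counts) and Tnfsf18, the ligand of GITR, in 2 (15 to 37). Tnfrsf4, which encodes OX40, was above it in 1 (9 to 27) and Cd40 in 1 (5 to 29). At this depth most of the class was not distinguishable from negative-control probes, which is not evidence that the genes were silent.

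B cell survival factors were the ligands Tnfsf13 and Tnfsf13b. Tnfsf13b had 45.1 and 66.5 normalised counts under PLX+PTX+aPD-L1, 22.0, 29.6 and 26.9 in R, 11.8, 19.7 and 14.6 in NR, 28.5 and 29.6 in PLX+PTX, and 20.0 and 17.7 in PTX. In normalised counts PLX+PTX+aPD-L1 did not overlap with any other group, and all 3 NR libraries were below all 3 R libraries and both PLX+PTX libraries. These are small counts: the raw values in PLX+PTX+aPD-L1 were 34 and 23, against detection limits of 32.5 and 22.7. Tnfsf13 encodes APRIL, which supports plasma cells. It had 119 and 283 normalised counts under PLX+PTX+aPD-L1, 139, 236 and 145 in R, 120.0, 164 and 101 in NR, 159 and 174 in PLX+PTX, and 131 and 144 in PTX. Its highest values were in PLX+PTX+aPD-L1 replicate 2 and R replicate 2, and the groups overlapped except that both PLX+PTX libraries were above both PTX libraries. The receptor gene on the panel, Tnfrsf17 (BCMA, of plasma cells), was above the limit in no library (4 to 18 raw counts).

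On the RANK axis, Tnfrsf11a, the gene of RANK, had 295 and 327 normalised counts under PLX+PTX+aPD-L1, 478, 703 and 341 in R, 386, 539 and 479 in NR, 573 and 523 in PLX+PTX, and 500.4 and 491 in PTX. As with Tnfrsf1a, the PLX+PTX+aPD-L1 libraries were the lowest 2. The decoy receptor gene Tnfrsf11b (osteoprotegerin) was above the limit in 3 libraries (6 to 42 raw counts).

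All 12 libraries entered a single fit across 615 endogenous probes with a raw count of at least 20 in 2 libraries, which took in 20 of the 29 members. The other 9 had no test, and the 20 are those with enough counts, not all members. The test was edgeR's quasi-likelihood test with Benjamini-Hochberg adjustment over the 615 and a threshold of 0.05. Whether samples within a group are different animals is in no label, so the p-values measure only how these samples spread, which may be technical. R, NR and PLX+PTX+aPD-L1 were each set against the same 2 PLX+PTX libraries, so those comparisons share their controls.

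Setting PLX+PTX+aPD-L1 against R and NR averaged compares the 2 antibodies on the same background treatment. Tnfsf13b, Tnfrsf1b and Tnfrsf14 were higher in PLX+PTX+aPD-L1, 3 of 20 tested members, and 0 were lower. Over all 615 probes 5.69% passed, all of them higher. The mean normalised count of Tnfsf13b was 55.8 ± 15.1 for PLX+PTX+aPD-L1 (SD, n = 2), against 20.8 ± 6.86 for R and NR together (SD, n = 6), with a log2 fold change of 1.45 (SE 0.28, adjusted p = 0.00702 by edgeR). That of Tnfrsf1b was 159 ± 49.2 in PLX+PTX+aPD-L1, against 55.8 ± 29.7 in R and NR (log2 fold change 1.61, SE 0.38, adjusted p = 0.0236 by edgeR). That of Tnfrsf14 was 123 ± 55.3 in PLX+PTX+aPD-L1, against 43.1 ± 11.6 in R and NR (log2 fold change 1.48, SE 0.36, adjusted p = 0.0298 by edgeR). In each of the 3 genes both PLX+PTX+aPD-L1 libraries were above all 6 aPD-1 libraries. Tnfrsf25, also without overlap, had a log2 fold change of 1.40 (SE 0.40) and missed the threshold (adjusted p = 0.0602 by edgeR). Its only count past the detection limit was in NR replicate 3. Divided by its own library's mean negative control, it stood at 1.64 and 1.42 in PLX+PTX+aPD-L1. The same ratio was 0.691 to 0.825 in R and 0.60 to 2.24 in NR, so the separation from NR was lost. In normalised counts, groups did not overlap, with PLX+PTX+aPD-L1 higher, in 4 of the 20 members and 11.5% of the 615 probes. They did not overlap, with it lower, in 2 members (Tnfrsf1a and Tnfrsf11a) and 4.72% of probes. The fit gave Tnfrsf1a a log2 fold change of −0.59 (SE 0.25, adjusted p = 0.226 by edgeR). It gave Tnfrsf11a −0.65 (SE 0.28, adjusted p = 0.233 by edgeR). The median log2 fold change was 0.26 over the 20 members and 0.10 over the 615 probes.

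Background moved with this comparison. Between PLX+PTX+aPD-L1 and the 6 R and NR libraries, the median log2 ratio was 0.74 over the 148 probes that no library detected. Relative to the negative controls of its own library, Tnfsf13b stood at 2.06 and 2.04 in PLX+PTX+aPD-L1, 1.14, 1.24 and 1.38 in R, and 0.933, 1.44 and 1.57 in NR, still without overlap. On this scale it did overlap with PLX+PTX, at 1.73 and 2.27, while the PTX libraries stood at 1.87 and 1.25. On that scale Tnfrsf1b stood at 8.85 and 3.82 in PLX+PTX+aPD-L1, against 1.37 to 2.56 in R and 3.05 to 11.4 in NR. Tnfrsf14 stood at 3.82 and 4.98 in PLX+PTX+aPD-L1, against 1.65 to 2.38 in R and 2.20 to 6.80 in NR, so both receptors overlapped with NR. After subtraction of the negative controls the log2 fold changes were 2.88 for Tnfsf13b, 2.18 for Tnfrsf1b and 1.88 for Tnfrsf14, and none passed (adjusted p = 0.128, 0.128 and 0.136 by limma). Signal and treatment cannot be told apart in the PLX+PTX+aPD-L1 group, since both of its libraries were of low signal. R replicate 2, the other such library, had 29.6, 61.1 and 39.4 normalised counts of Tnfsf13b, Tnfrsf1b and Tnfrsf14, all below both PLX+PTX+aPD-L1 libraries. As 1 library it cannot separate signal from treatment. Its raw counts of Tnfsf13b and Tnfrsf14, 15 and 20, were below its limit of 25.7. Within R it had the highest Tnfsf13b and Tnfrsf1b and the lowest Tnfrsf14. Without PLX+PTX+aPD-L1 replicate 2 none of the 3 passed (adjusted p = 0.0958, 0.0598 and 0.311 by edgeR), and without replicate 1 Tnfrsf1b did not (adjusted p = 0.190 by edgeR). Leaving out R replicate 1, R replicate 3 or NR replicate 1 kept the call of Tnfsf13b alone, and leaving out R replicate 2 or NR replicate 2 ended that of Tnfrsf14.

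Marker genes of several cell types also differed between these groups. The summed level of the 11 T cell genes on the panel was 236 to 355 normalised counts under PLX+PTX+aPD-L1. It was 110.1 to 194 in R and NR, with 6 of the 11 above the limit in no library. Each probe in a sum also carries scaled background. Negative controls averaged 21.9 and 32.5 normalised counts in the PLX+PTX+aPD-L1 libraries, 19.2 to 23.9 in R and 9.32 to 13.7 in NR. The T cell sum, and the B cell sum given below, therefore cannot be told from background. Of the 5 tested T cell genes, 2 rose (Zap70 and Cd2, log2 fold changes 2.68 and 2.01), but Cd2 was above the limit in no library. The 4 endothelial genes summed to 317 to 780.2 in PLX+PTX+aPD-L1 and 127 to 253 in R and NR. All 4 lay above 0 (median log2 fold change 1.04), and 1 of 4 passed (Kdr, log2 fold change 2.45). Of the shorter lists, 1 of 3 tested natural killer cell genes (Gzma, 2.04) and 1 of 3 fibroblast genes (Pdgfrb, 1.84) also rose. All 3 natural killer cell genes lay above 0, and another fibroblast gene lay below 0. Zap70, Gzma and S100a9, a neutrophil gene, were each above the limit in fewer than 6 of the 12 libraries, and Kdr and Pdgfrb in at least 6. Of 2 tested neutrophil genes S100a9 rose (2.31) and the other, S100a8, lay below 0, and the neutrophil sums overlapped, at 639 to 778 in PLX+PTX+aPD-L1 and 394 to 3071 in R and NR. The 8 macrophage and monocyte genes summed to 1380.4 to 1673 in PLX+PTX+aPD-L1 and 1702 to 2530 in R and NR. Of the 8 genes 4 lay above 0 and 4 below (median log2 fold change −0.08), and 0 of 8 passed. The 5 B cell genes summed to 79.6 to 121 in PLX+PTX+aPD-L1 and 30.6 to 65.0 in R and NR, with 4 of the 5 above the limit in no library and 0 of 1 tested past the threshold. The 4 mammary epithelial genes summed to 5299 to 5487 in PLX+PTX+aPD-L1 and 6115 to 8601 in R and NR. All 4 lay below 0, and 0 passed. The part of these cell types in the 3 calls, and in the lower counts of Tnfrsf1a and Tnfrsf11a, was not tested.

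**Figure D3:**
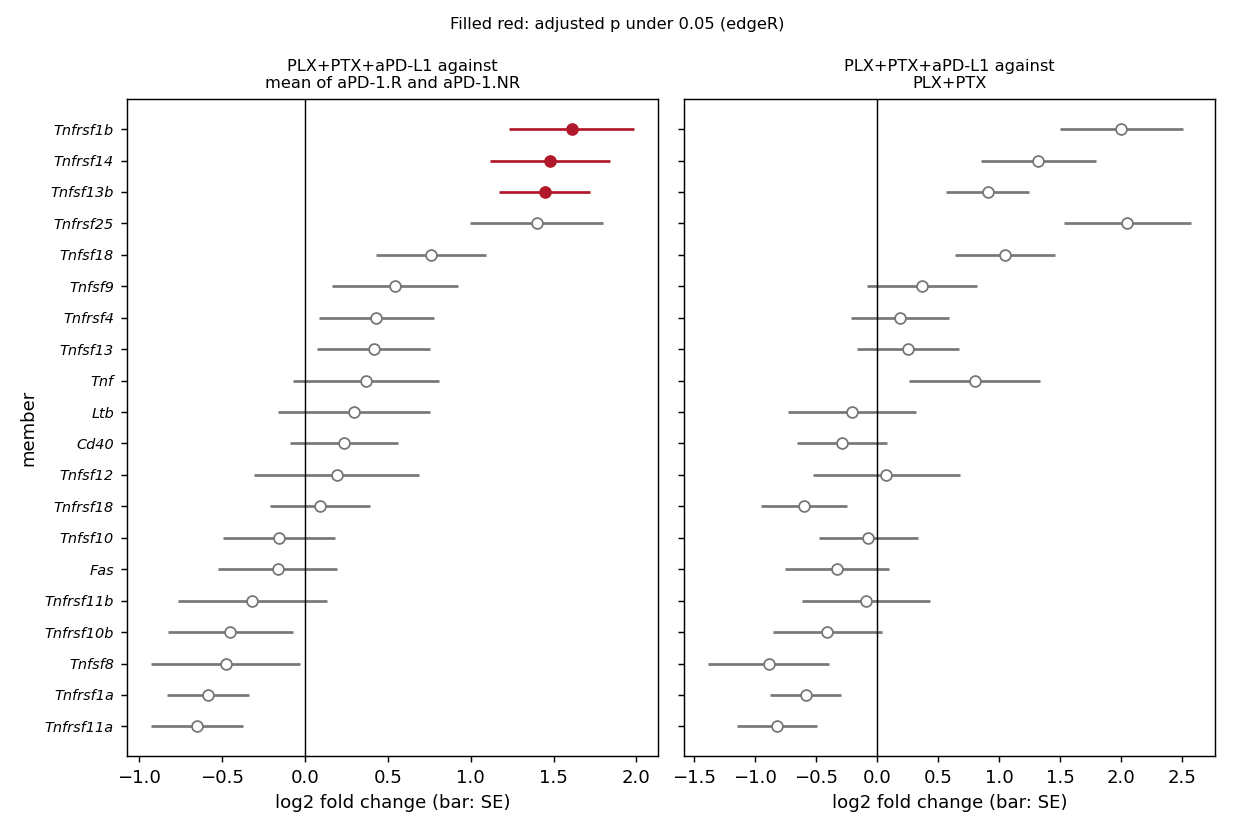
Log2 fold change (x axis, bars are SE) of the 20 tested members (rows) in PLX+PTX+aPD-L1 against R and NR averaged (left) and against PLX+PTX (right), from the same fit; filled red points passed the threshold. Tnfrsf1b, Tnfrsf14 and Tnfsf13b passed on the left and none on the right, and the order of the members is that of the left side.

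Against PLX+PTX without antibody, PLX+PTX+aPD-L1 had 0 of 20 tested members past the threshold, while 2.28% of the 615 probes passed. By edgeR's quasi-likelihood test 6 members and 99 of the 615 probes had an unadjusted p under 0.05. DESeq2 called 2 members and 26 probes. The 2 groups did not overlap in 9 of the 20 members and 44.4% of the 615 probes, with PLX+PTX+aPD-L1 higher in 5 (23.1% of probes) and lower in 4 (21.3% of probes). The mean of Tnfrsf1b was 159 ± 49.2 for PLX+PTX+aPD-L1, against 40.0 ± 0.12 for PLX+PTX (normalised counts, SD, n = 2 each). Its log2 fold change was 2.0 (SE 0.50, adjusted p = 0.0638 by edgeR). Tnfrsf25, below the limit in every library of both groups, had means of 41.0 ± 7.35 for PLX+PTX+aPD-L1 and 9.73 ± 6.38 for PLX+PTX (log2 fold change 2.05, SE 0.52, adjusted p = 0.0643 by edgeR). DESeq2 called these 2 genes, as did the fit restricted to both groups. For Tnfrsf14 the means were 123 ± 55.3 for PLX+PTX+aPD-L1 and 48.3 ± 20.3 for PLX+PTX (log2 fold change 1.32, SE 0.47, adjusted p = 0.196 by edgeR). Tnfsf13b, Tnfsf18 and Tnfrsf11a completed the 6, with log2 fold changes of 0.91, 1.05 and −0.82. Tnfsf18 too was below the limit in every library of both groups. The median was 0.00 over the members, −0.02 over the 615 probes and 0.71 over the 148 probes that no library detected.

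The ratio of Tnfrsf1b to Tnfrsf1a probe counts within a library does not depend on scaling and can be set between libraries, though it does not give the ratio of their transcripts. The pair was chosen after the values of both genes were seen, so the ratio is a description with no test. Per 100 raw counts of Tnfrsf1a there were 46.3 and 22.4 counts of Tnfrsf1b in PLX+PTX+aPD-L1, 3.92, 5.51 and 4.22 in R, 11.3, 6.24 and 16.9 in NR, 5.24 and 5.75 in PLX+PTX, and 8.19 and 6.78 in PTX. PLX+PTX+aPD-L1 was above every other library, and all 3 NR libraries were above all 3 R libraries. After subtraction of the negative controls the values were 43.4 and 17.6 in PLX+PTX+aPD-L1, 1.09, 3.43 and 1.59 in R, 9.45, 4.28 and 15.6 in NR, 3.14 and 3.95 in PLX+PTX, and 6.95 and 4.91 in PTX, with the same separations.

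**Figure D4:**
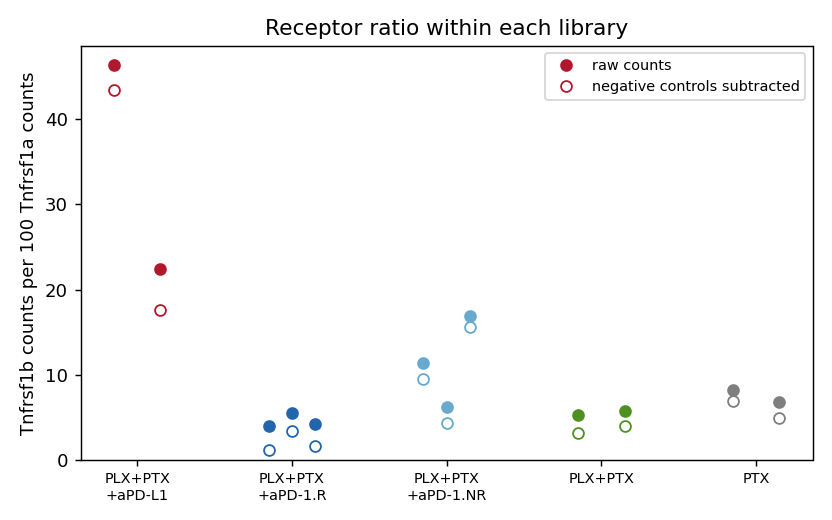
Tnfrsf1b counts per 100 Tnfrsf1a counts in each library (y axis, linear, from 0) by group (x axis), from raw counts (filled) and after subtraction of the library's mean negative control (open). The PLX+PTX+aPD-L1 libraries are at 46.3 and 22.4 on raw counts, above all others, and the R libraries lie between 3.92 and 5.51.

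R against NR asks what separates the tumours so labelled under the same PD-1 antibody regimen. Here 0 of 20 members passed and 0% of the 615 probes. By edgeR's quasi-likelihood test 4 members and 42 probes had p below 0.05 before adjustment, and 0 members passed by DESeq2 or limma-voom. Tnfsf8 had the smallest p (log2 fold change 1.09, SE 0.35, adjusted p = 0.626 by edgeR) but was above the limit in no library. Cd40, the receptor of antigen-presenting cells, had a mean normalised count of 19.5 ± 3.24 in R, against 10.8 ± 0.491 in NR (SD, 3 samples each; log2 fold change 0.83, SE 0.29, adjusted p = 0.644 by edgeR). The means of Tnfsf13b were 26.1 ± 3.85 in R and 15.4 ± 3.97 in NR (log2 fold change 0.74, SE 0.29, adjusted p = 0.644 by edgeR). All 3 R libraries were above all 3 NR libraries in these 3 genes, as in 5 of the 20 members and 11.5% of the 615 probes, while all R libraries were below all NR libraries in 0 members and 2.11% of probes. Neither Cd40 nor Tnfsf13b was above the limit in any R library, and the scaled negative controls, at 20.9 ± 2.63 in R and 11.9 ± 2.28 in NR, separated in the same direction. Tnfrsf1b, above the limit in 1 of 3 R libraries and in all 3 of NR, had the opposite sign, at 39.4 ± 18.9 in R and 72.3 ± 32.2 in NR (log2 fold change −0.93, SE 0.41, adjusted p = 0.644 by edgeR), with overlapping libraries. The median was 0.20 over the members, 0.11 over the 615 probes and 0.61 over the 148 probes above the limit in no library.

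Relative to PLX+PTX, neither PD-1 antibody group had a member past the threshold, and 0% of the 615 probes passed in either comparison. In R against PLX+PTX, 1 member and 15 probes had p below 0.05 before adjustment by edgeR's quasi-likelihood test. By DESeq2 or limma-voom 0 members passed. The member was Tnfrsf18, at 33.9 ± 5.64 in R (normalised counts, SD, n = 3), against 60.8 ± 12.1 in PLX+PTX (SD, n = 2). Its log2 fold change was −0.83 (SE 0.31, adjusted p = 0.979 by edgeR). Tnfsf18 and Tnfrsf25 followed with 0.58 and 0.66 (SE 0.37 and 0.50), both below the limit in every library of R and PLX+PTX. In normalised counts R was above PLX+PTX without overlap in 1 member (Tnfsf18) and 6.18% of the 615 probes, and below it in 1 member (Tnfrsf18) and 9.43% of probes. Relative to each library's negative controls, Tnfsf18 stood at 1.23, 1.48 and 1.09 in R and 1.21 and 1.13 in PLX+PTX, with overlap. For R against PLX+PTX the 148 probes above the limit in no library had a median of 0.31. In NR against PLX+PTX, 3 members and 23 probes had p below 0.05 before adjustment by edgeR's quasi-likelihood test. By DESeq2 or limma-voom 0 members passed. The log2 fold change was −0.94 for Cd40 (SE 0.31), −0.91 for Tnfsf13b (SE 0.31) and −0.95 for Tnfsf8 (SE 0.38), each with an adjusted p of 0.929 by edgeR. Cd40 was above the limit in no NR library and 1 of PLX+PTX, Tnfsf13b in 1 of each group and Tnfsf8 in none. Relative to each library's negative controls, Cd40 stood at 0.748 to 1.20 in NR and 0.978 and 1.93 in PLX+PTX. Tnfsf8 stood at 0.40 to 0.897 in NR and 0.863 and 1.20 in PLX+PTX. On that scale these 2 genes overlapped and Tnfsf13b did not. Of the 20 members 4 lay above 0 in NR, against 30.2% of the 615 probes, and the median was −0.21 over the members and −0.18 over the probes. The 6 tested costimulation genes, among the 16 members below 0, had a median of −0.48, and none passed. NR was below PLX+PTX without overlap in 7 of the 20 members and 18.4% of the 615 probes, and above it in 1 member (Tnfrsf1b) and 2.76% of probes, and the 148 probes above the limit in no library had a median of −0.26.

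PLX+PTX against PTX asks what PLX adds to PTX. None of the 20 members passed, and 0% of the 615 probes did. By edgeR's quasi-likelihood test 1 member, Cd40, and 12 probes had p below 0.05 before adjustment. By DESeq2 or limma-voom 0 members passed. The mean normalised count of Cd40 was 20.7 ± 6.44 for PLX+PTX, against 10.2 ± 2.92 for PTX (SD, n = 2 each). Its log2 fold change was 1.0 (SE 0.34, adjusted p = 0.996 by edgeR), and it was above the limit in 1 library of PLX+PTX and in neither of PTX. Tnfrsf18 had means of 60.8 ± 12.1 for PLX+PTX and 39.3 ± 6.86 for PTX (log2 fold change 0.63, SE 0.33) and Tnfsf13b of 29.0 ± 0.789 for PLX+PTX and 18.8 ± 1.66 for PTX (log2 fold change 0.62, SE 0.33), neither past the threshold. In normalised counts all 3 genes were without overlap between the groups. So were 9 of 20 members and 35.1% of the 615 probes, 7 members higher in PLX+PTX (18.9% of probes) and 2 lower (16.3% of probes). Relative to each library's negative controls, Cd40 stood at 0.978 and 1.93 in PLX+PTX and 1.14 and 0.575 in PTX. Tnfsf13b stood at 1.73 and 2.27 in PLX+PTX and 1.87 and 1.25 in PTX. On that scale these 2 genes overlapped and Tnfrsf18 did not. Tnfsf13b was above the limit in 1 library of each group. The 148 probes above the limit in no library had a median of 0.16. The 8 macrophage and monocyte genes summed to 2360.4 to 3267 normalised counts in PLX+PTX and 2766 to 4666 in PTX.

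Genes that act downstream of the receptors were given as lists. The adaptor and kinase list had 18 tested genes, among them Fadd, Ripk1, Casp8 and the NF-kappaB subunits, and 0 passed in any of the 6 comparisons. Its median log2 fold change lay between −0.01 and 0.11. Its gene of smallest p in PLX+PTX+aPD-L1 against R and NR was Bid, a substrate of caspase-8 (log2 fold change −0.71, SE 0.36, adjusted p = 0.328 by edgeR). The list of genes that TNF induces through NF-kappaB had 16 tested genes, 0 of which passed in any of the 6 comparisons, with medians from −0.15 to 0.28. In PLX+PTX+aPD-L1 against R and NR its gene of smallest p was Ptgs2, the inducible cyclooxygenase (log2 fold change 1.28, SE 0.48, adjusted p = 0.165 by edgeR). Against PLX+PTX it was Icam1, an adhesion molecule of activated endothelium (log2 fold change 1.5, SE 0.61, adjusted p = 0.244 by edgeR). In R relative to NR the genes of smallest p in these lists were Relb and Ccl20. Their log2 fold changes were 0.62 and 0.93 (adjusted p = 0.644 and 0.614 by edgeR), and Ccl20 was above the limit in no library.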

How the data were processed

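Raw counts of the panel's probes (750 endogenous, 20 housekeeping, 6 positive-control, 8 negative-control) in 12 samples are whole numbers as deposited, with no normalization, per the file headers. Per the labels' protocols, cDNA made from tumour RNA went through multiplexed target enrichment before counting. The authors also deposited log2 values, by a method not given in the sources used here (DESeq2 and limma are named, per the submitters' processing notes), which served as an alternative.

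Groups came from the titles, and replicate numbers only name libraries. Counts were scaled by the housekeeping geometric mean (scale factors 0.346 to 1.80). The main fit was 5 group means in edgeR 4.0.16 (R 4.3.3; 7 residual degrees of freedom), with 6 contrasts; limma 3.58.1 and DESeq2 1.42.0 were alternatives. The members and lists were chosen with earlier results of these data known. Named were all members above the detection limit in 6 or more libraries, all past the threshold, and the 3 of smallest p in each comparison; of the lists, genes past the threshold or else that of smallest p. Members outside this rule (Ltb, Tnfrsf4, Tnfsf9 and those at background) are given by range. No pair of libraries of a group matched within sampling noise (lowest chi-square per degree of freedom 13.2). Simulated counts for the 615 probes had 200 of them changed, and simulated folds ignored background. For PLX+PTX+aPD-L1 against R and NR, edgeR recovered 50% of 2-fold and 96% of 4-fold changes. Recovery was 20% and 90% for PLX+PTX against PTX. With PLX+PTX as the reference of PLX+PTX+aPD-L1, it was 30% and 83%. In the data at most 35 probes passed in a comparison. Recovery with so few changed probes was not simulated, so these rates do not give the power for a few changed members.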

Additional observations from a re-analysis of the deposited data

How the results depend on the processing

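In PLX+PTX+aPD-L1 against R and NR averaged, 3 members passed in the fit reported. The count was 0 after subtraction of the negative controls, 0 on probes above the detection limit in 10 or more libraries (where Tnfsf13b was not tested), 1 (Tnfsf13b) in a fit of only the groups compared, and 0 to 4 when each library was left out. It was 3 or 4 under TMM scaling, DESeq2 size factors (Tnfrsf1a, lower, in place of Tnfrsf14), DESeq2, limma-voom, no filter and the deposited log2 values (Tnfsf13b with Tnfrsf1a and Tnfrsf11a, both lower). Tnfsf13b passed in 18 of 20 alternatives, Tnfrsf1b in 12 of 21 and Tnfrsf14 in 10 of 21, all with the same direction in every alternative run (log2 fold changes from 0.86 to 2.88, 1.13 to 2.18 and 0.95 to 1.90). In PLX+PTX+aPD-L1 against PLX+PTX the count was 0 in the fit reported, 2 by DESeq2, 2 in a fit of only the groups compared, and 0 to 1 when each library was left out. In the other 4 comparisons it was 0 under every alternative, leaving out each library included (0 to 0), and also without the 3 libraries of low signal, which leaves no PLX+PTX+aPD-L1 sample. TMM scaling moved the median of all 615 genes in PLX+PTX+aPD-L1 against R and NR to −0.09, and DESeq2 size factors to −0.13, from 0.10 with housekeeping scaling; the 3 calls lay at 1.20 to 1.47 under these scalings. The number of all genes called there was 61 on the deposited log2 values, 20 after subtraction, 4 under the stricter detection filter and 14 without PLX+PTX+aPD-L1 replicate 2, in place of 35; the cause was not tested. A lone sample left in a group was assumed to vary like the other groups. Of the 120 pairs of a tested member and a comparison, 63 turned direction under at least 1 alternative, and 0 of these 63 passed the threshold under any; the 8 pairs that passed under some alternative kept their direction in all that were run. No paired analysis was possible because the labels number the samples in a single run and pair none of them. Depth limits members near the negative controls.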
